A study of Mus musculus with 36 samples.

Results

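The 10 genes described here encode heat shock chaperones and their partners: Hspa1a, Hspa1b, Hspa8, Hsph1, Hsp90aa1, Hspb1, Hspd1, Hspe1, Dnajb1 and Bag3. They were chosen by gene symbol, and all 10 were found among the 54842 genes of the count table. The 36 libraries came from an established line of male MEF cells (mouse embryonic fibroblasts) and form 12 groups of 3 biological replicates. Both lines carried a catalytically dead Cas9 under a doxycycline-inducible promoter, together with a constantly expressed guide RNA against the major satellite repeats (MSR) of pericentric heterochromatin. In the MSR-dCas9-Control line the dCas9 had no effector. In the MSR-dCas9-Activator line it was fused to VPR, a transcriptional activator domain. Both were mixed cultures of cells with integrated transposon vectors, not single clones. Each line was sampled before doxycycline (uninduced), at the end of a treatment at 10 ng/ml (induced), and again 3, 6, 12 and 24 h after the change to medium without it. Induction lasted 24 h in the Control line and 6 h in the Activator line, so the effector and the length of doxycycline exposure cannot be told apart at the later time points. The comparison asks how the RNA of these chaperones differed while satellite transcription was forced and after the inducer had been withdrawn.

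Heat shock proteins hold unfolded polypeptides, refold them or pass them on for degradation. HSP70 proteins bind exposed hydrophobic stretches in cycles of ATP hydrolysis that J-domain proteins such as Dnajb1 start and that nucleotide exchange factors such as Hsph1 and the BAG protein Bag3 reset. HSP90 acts later on near-native clients such as kinases, small heat shock proteins such as Hspb1 hold clients without using ATP, and Hspd1 with its lid Hspe1 forms a folding chamber in the mitochondrial matrix. In stressed cells heat shock factor 1 (Hsf1) binds arrays of GAA and TTC units before many of these genes and raises their transcription, while Hspa8 and much of the Hsp90aa1 and Hspd1 pool are also made without stress.

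Gene counts held between 27376846 and 57371803 reads per library, with a median of 42865961. Levels are given as CPM, counts scaled to a common library total with TMM factors, which correct for the RNA composition of each library. Differences are log2 fold changes with standard errors from edgeR's quasi-likelihood test over 28536 genes in all 36 libraries with the replicate number in the model, and a gene passed where the Benjamini-Hochberg adjusted p was under 0.05. The targeted repeat family GSAT_MM stood at 99.3, 52.1 and 92.0 CPM in the 3 uninduced Activator replicates and 3573, 2362 and 25191 CPM in the induced ones, against 32.0, 31.4 and 32.9 CPM in the induced Control replicates, so the Activator replicates differed strongly in the level of the target. It stayed high after the inducer was withdrawn, at 11490.5, 10773 and 35424 CPM in the Activator replicates at 24 h. Fibroblast markers at 24 h summed to 23565 to 25768 CPM in the Control line and 10799.6 to 19418 CPM in the Activator line. Of the 8 genes 7 were tested and 5 of these were lower in the Activator line, and none of the 8 was at 0. The 4 endothelial markers were all higher in the Activator line at that time (1.33 to 1.91 CPM and 14.1 to 37.8 CPM in sum). So were all 3 tested of the 5 blood and macrophage markers (4.58 to 4.92 CPM and 7.48 to 11.9 CPM). Of these 5, Hbb-bs was at 0 in both lines and Adgre1 in the Control line. All 3 tested of the 4 skeletal muscle markers were higher too (0.504 to 1.03 CPM and 2.98 to 6.13 CPM). Of the 5 epithelial markers 3 were tested and 1 was higher (1.08 to 1.37 CPM and 2.53 to 3.95 CPM, with Epcam and Krt5 at 0 in the Control line). Of the 4 neural markers 3 were tested, with 1 higher and 1 lower (19.8 to 22.2 CPM and 9.28 to 18.9 CPM, with Sox2 and Map2 at 0 in the Control line). Before induction 1 epithelial and 1 endothelial marker already passed as higher in the Activator line. The epithelial sums were then 0.716 to 1.16 CPM in the Control line and 1.91 to 2.86 CPM in the Activator line. By flow cytometry, the paper reports apoptosis or death in most Activator cells at the last time point, while Control cells kept high viability. The part of this cell death and of these marker differences in the results below was not tested. In bulk RNA fewer cells with a transcript and less of it per cell cannot be told apart.

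The 10 genes covered a wide range of levels. Per kilobase of exon and averaged over the 6 uninduced libraries, Hspa8, the constitutive HSP70, was highest at 407 CPM per kilobase, followed by Hspd1 at 299, Hsp90aa1 at 199 and Hspe1 at 118. Bag3 at 29.8, Hsph1 at 19.1 and Dnajb1 at 16.6 CPM per kilobase formed a middle group. The stress-inducible Hspa1b at 0.763, Hspb1 at 0.604 and Hspa1a at 0.0230 CPM per kilobase were near the bottom of the measurable range. The ranges over the 6 libraries overlapped between Hspa8 and Hspd1, between Hsph1 and Dnajb1 and between Hspa1b and Hspb1, and the other neighbours in this order did not overlap. All 10 genes passed the filter on low counts. Hspa1a did so only through the Activator libraries at 12 and 24 h, the 6 libraries in which its count per library size, before TMM, reached the filter's level of 0.233 CPM. A difference at those times was built into its being tested, so its values are given as a description and its calls support nothing, in the counts of passed genes too. The p-values below measure the spread between these biological replicates of 1 line each.

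**Figure D1:**
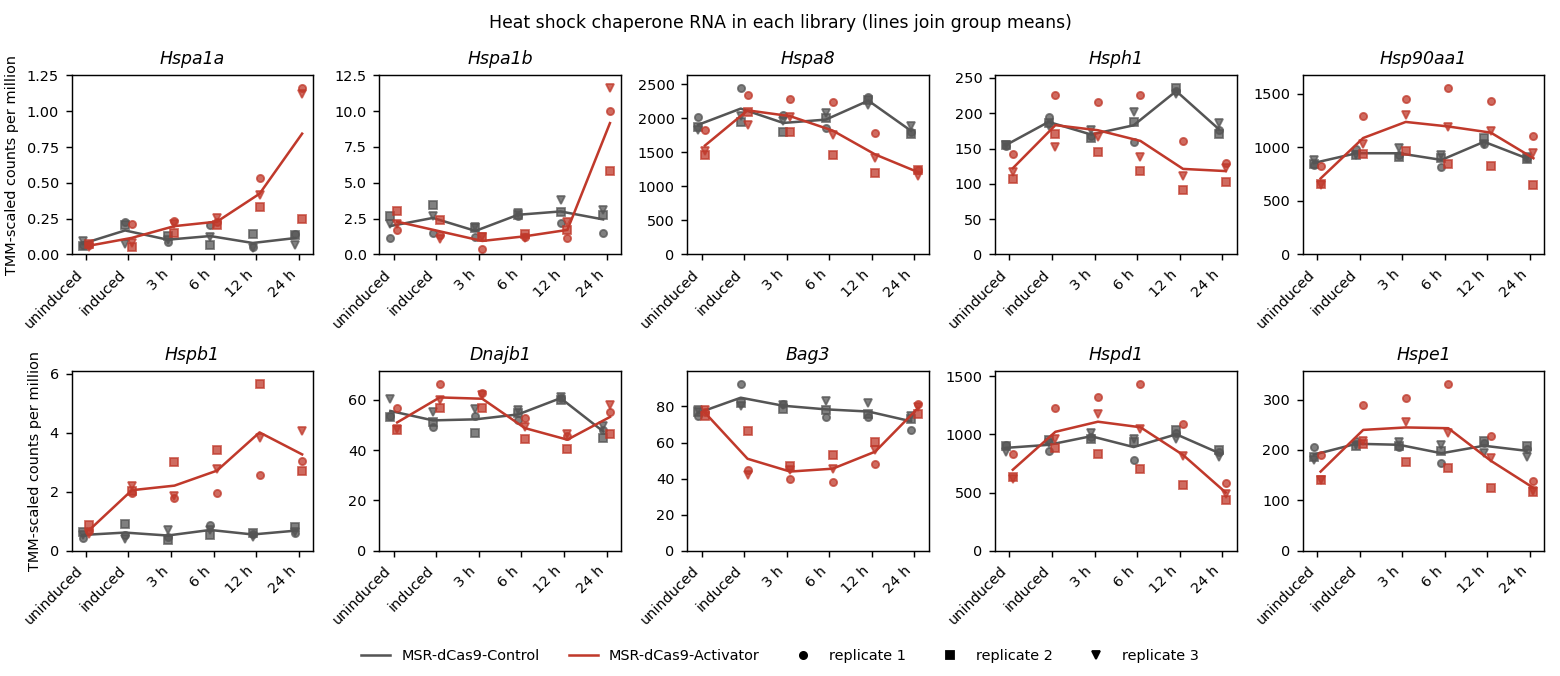
RNA of the 10 chaperone genes in TMM-scaled CPM (y axis, from 0) at the 6 time points (x axis) in the MSR-dCas9-Control (grey) and MSR-dCas9-Activator (red) lines, with 1 symbol per replicate and lines through group means. Bag3 in the Activator line lies between 38.2 and 66.2 from induction to 6 h and returns to 75.8 or more at 24 h, where Hspa1a and Hspa1b reach their highest levels.

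Before induction and in the Control line the chaperone genes did not pass. Of the 10 genes, 0 passed between the uninduced lines, where 1.23% of all genes tested did. At an unadjusted p under 0.05 there were 3, Hspa8, Hsph1 and Hspd1, each lower in the Activator line, and DESeq2 also called 0. From uninduced to induced, 3, 6, 12 and 24 h the Control line showed 0 of 10 passed at each step, against backgrounds of 0.214%, 0.55%, 0.403%, 1.05% and 0.788% of all genes. At an unadjusted p under 0.05 the counts were 1, 0, 0, 3 and 1, and DESeq2 called 0, 0, 0, 1 and 0. The gene that DESeq2 called at 12 h was Hsph1, with an edgeR log2 change of 0.58 ± 0.15.

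After induction the lines differed at every time point, and the direction depended on the gene. At the end of induction 3 of 10 passed between the lines: Hspb1 and Dnajb1 were higher in the Activator line and Bag3 was lower, where 31.7% of all genes passed as higher and 25.5% as lower. At 3 h 3 were higher and 2 lower, against 39.6% and 31.4% of all genes. At 6 h 2 were higher and 2 lower, against 40.8% and 33.3%. At 12 h 2 were higher and 5 lower, against 41.1% and 34.1%. At 24 h 3 were higher and 4 lower, against 34.5% and 29.4%. In either direction 3, 5, 4, 7 and 7 of the 10 passed from induction to 24 h, beside 57.3%, 70.9%, 74.1%, 75.2% and 63.9% of all genes. The counts from induction to 6 h are below that share and those at 12 and 24 h are near it. With 10 genes and so many genes passing, the counts are not read as a result, and the genes are described singly. Between 53.6% and 55.8% of the genes that passed between or within lines after induction were higher with TMM. The range was 26.2% to 48.7% when libraries were scaled to the 13 mitochondrially encoded mRNAs and 59.4% to 63.1% with DESeq2 size factors, so small differences depend on the scale.

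Within the Activator line 7 of the 10 genes rose from uninduced to induced and 1 fell, against 32.9% of all genes that rose and 28% that fell. They were 8 and 2 at 3 h against 39.8% and 33.3%, and 6 and 2 at 6 h against 40.5% and 33.9%. Both 3 h falls were those of Bag3 and Hspa1b. The counts were 3 and 2 at 12 h against 40.2% and 34.9%, and 3 and 2 at 24 h against 34.3% and 28.5%. The change from uninduced itself differed between the lines for 3, 5, 6, 7 and 4 of the 10 genes at induced, 3, 6, 12 and 24 h, against 32.2%, 47.1%, 50.1%, 51% and 33.1% of all genes.

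**Figure D2:**
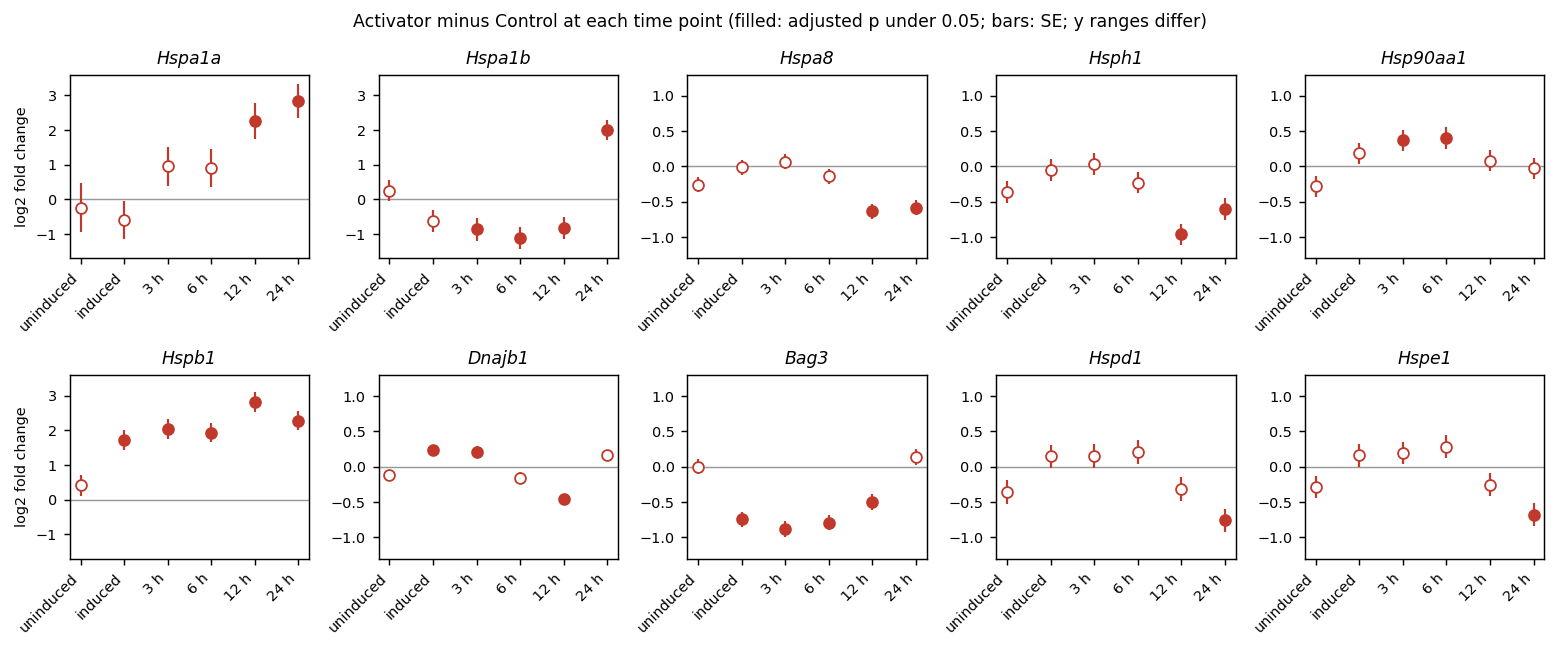
Log2 fold change of MSR-dCas9-Activator over MSR-dCas9-Control (y axis, with different ranges) at the 6 time points (x axis) for each gene, with standard errors as bars and filled points where the adjusted p was under 0.05. Hspb1 is filled from induction on, Bag3 is filled below 0 from induction to 12 h, and Hspa1b turns from -0.82 at 12 h to 1.99 at 24 h.

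Bag3, a co-chaperone that joins HSP70 to small heat shock proteins and to selective autophagy, was lower during induction and up to 12 h after it, and was back near its uninduced level at 24 h. The gene lies at chr7:128523616-128546981 on GRCm38, plus strand. Its RNA stood at 77.1, 74.6 and 77.8 CPM in the uninduced Activator replicates and at 44.7, 66.2 and 42.2 CPM at the end of induction, where the Control replicates held 92.3, 81.7 and 80.5 CPM. The Activator values lay below all Control values, with replicate 2 the closest to them. At 3 h the Activator replicates held 40.1, 47.1 and 44.6 CPM and at 24 h 81.4, 75.8 and 79.6 CPM, against 81.5, 78.6 and 81.0 and 67.2, 73.3 and 74.8 CPM in the Control line. The groups were apart at 3 h in the lower direction and at 24 h in the higher one.

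Between the lines the log2 fold change of Bag3 was -0.75 ± 0.11 at induction (edgeR adjusted p = 2.00e-06), -0.88 ± 0.11 at 3 h (adjusted p = 7.40e-08), -0.79 ± 0.11 at 6 h (adjusted p = 4.08e-07) and -0.49 ± 0.11 at 12 h (adjusted p = 2.35e-04). Within the Activator line the change from uninduced was -0.80 ± 0.11 at 3 h and 0.046 ± 0.11 at 24 h (adjusted p = 0.731). The 4 differences between the lines that passed did so under every alternative scaling, filter and model tried, with values of -1.48 to -0.74 at 3 h over the settings and -0.93 to -0.74 with libraries left out. At 24 h the difference was 0.14 ± 0.11 and did not pass in edgeR (adjusted p = 0.268), while DESeq2, which put it at 0.29, called it (adjusted p = 0.0179).

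Hspb1, the small heat shock protein also called HSP25 in mice, rose from a very low level and stayed higher to the end. It lies at chr5:135887919-135889563 on GRCm38, plus strand. In all 18 Control libraries its RNA ranged from 0.377 to 0.920 CPM. In the Activator line it stood at 0.689, 0.863 and 0.570 CPM uninduced, 1.96, 2.02 and 2.19 CPM at induction, 2.59, 5.64 and 3.81 CPM at 12 h and 3.03, 2.71 and 4.07 CPM at 24 h. From induction on every Activator library lay above every Control library, and the replicates spread most at 12 h, with replicate 2 highest. The difference between the lines was 1.72 ± 0.28 on the log2 scale at induction (edgeR adjusted p = 8.04e-06), 2.03 ± 0.29 at 3 h, 1.94 ± 0.28 at 6 h, 2.82 ± 0.28 at 12 h, 7.05-fold (adjusted p = 6.02e-10), and 2.27 ± 0.28 at 24 h (adjusted p = 5.57e-08). All 5 passed under every alternative scaling, filter and model and with every library left out, but its counts are below the limit of a mean of 100 used as a further alternative. Of the stretches of 150 bases in its transcript, 36.6% are also found in the pseudogene Hsp25-ps1, so part of its reads could not be placed by sequence alone.

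Hspa1a and Hspa1b, the stress-inducible HSP70 genes, lie next to each other on the minus strand at chr17:34969190-34972156 and chr17:34956436-34959238 on GRCm38. Their starts are near copies, with 247 of the 250 bases before the RefSeq start site the same at each position. The stretches from 140 to 61 bases before the start (chr17:34972217-34972296 and chr17:34959299-34959378, GRCm38.p6, minus strand) are shown because these genes and Hspb1 were the 3 members that passed as higher in the Activator line at 24 h, for Hspa1a as a description only. The corresponding stretch of Hspb1 (chr5:135887779-135887858, plus strand) stands beside them. Sequences are RefSeq promoters from 5′ to 3′, and the capitals mark GAA, 2 bases of any kind, then TTC, a pair of heat shock element units that reads the same on both strands.
Hspa1a: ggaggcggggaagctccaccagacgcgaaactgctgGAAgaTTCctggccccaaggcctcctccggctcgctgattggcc
Hspa1b: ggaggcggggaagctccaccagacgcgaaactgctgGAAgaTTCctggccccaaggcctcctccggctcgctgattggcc
Hspb1: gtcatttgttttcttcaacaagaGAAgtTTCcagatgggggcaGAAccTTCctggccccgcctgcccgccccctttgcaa
Hspa1a and Hspa1b hold the same pair 104 bases before the start and are identical over the 80 bases shown. Hspb1 holds a pair at 117 and another at 97 bases before it. This pair is found within 250 bases before the start in 7.73% of 27025 genes with a RefSeq promoter, so a match is a description and not evidence of binding.

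Hspa1b dipped after induction and then rose steeply. In the Activator replicates it stood at 1.71, 3.03 and 2.12 CPM uninduced, 0.355, 1.24 and 1.23 CPM at 3 h, 1.22, 1.46 and 1.13 CPM at 6 h and 10.0, 5.84 and 11.6 CPM at 24 h. The Control line held 1.20, 1.82 and 1.91 CPM at 3 h, 2.67, 2.72 and 2.92 CPM at 6 h and 1.50, 2.75 and 3.10 CPM at 24 h. The lines overlapped at 3 h, were apart at 6 h with the Activator line lower, and were apart at 24 h with the Activator line higher. The log2 difference was -0.86 ± 0.33 at 3 h (edgeR adjusted p = 0.0225), -1.11 ± 0.32 at 6 h (adjusted p = 0.00252), -0.82 ± 0.31 at 12 h (adjusted p = 0.0173) and 1.99 ± 0.30 at 24 h (adjusted p = 1.38e-06). The calls at 6 and 24 h held under every alternative scaling, filter and model, with 1.58 to 2.41 at 24 h as libraries were left out. The call at 3 h was lost without a replicate block, with DESeq2 size factors, and without Activator replicate 1 (-0.53) or Control replicate 3 (-0.82), and that at 12 h without Activator replicate 1 (-0.67), Activator replicate 2 (-0.65) or Control replicate 3 (-0.60), without a replicate block and in DESeq2 (-0.61).

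Hspa1a was counted only 2 to 48 times per library. In the Activator line it held 3, 3 and 2 reads uninduced, 22, 15 and 12 reads at 12 h and 48, 11 and 45 reads at 24 h, which came to 1.16, 0.244 and 1.12 CPM at 24 h. The Control replicates held 0.145, 0.134 and 0.0645 CPM at that time. All 3 Activator replicates were above the Control line at 12 and 24 h, with replicate 2 the lowest of them at 24 h. The log2 difference was 2.25 ± 0.53 at 12 h and 2.84 ± 0.48 at 24 h, with 2.21 to 3.54 at 24 h as libraries were left out. From the summed counts alone, 104 against 14 reads, the ratio at 24 h was 7.32 with an exact 95% interval of 4.17 to 13.8, which covers counting error only. Over uninduced Activator cells the rise was 3.65 ± 0.52 at 24 h, or 13.3-fold by summed counts (interval 6.51 to 31.6).

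The copies could not be fully separated. Of the 150-base stretches of the Hspa1a transcript 39.7% also occur in another gene, nearly all in Hspa1b, and the sources used here do not say how reads with several matches were shared. With both summed, the log2 difference between the lines was -0.94 ± 0.30 at 6 h (edgeR adjusted p = 0.00558), -0.52 ± 0.29 at 12 h (adjusted p = 0.0981) and 2.04 ± 0.28 at 24 h (adjusted p = 4.07e-07). The opposite signs of Hspa1a and Hspa1b at 12 h rest on 49 Hspa1a reads in 3 Activator libraries, and the sum did not pass at that time.

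The abundant HSP70 Hspa8 and its exchange factor Hsph1 were lower in the Activator line at the end of the series. Hspa8 lies at chr9:40800984-40810087 (plus strand) and Hsph1 at chr5:149614287-149636376 (minus strand) on GRCm38. At 24 h Hspa8 stood at 1241, 1233 and 1156 CPM in the Activator replicates and 1792, 1762 and 1893 CPM in the Control replicates. At 12 h the values were 1782, 1199 and 1422 CPM and 2311, 2263 and 2199 CPM. The groups were apart at both times, and the Activator replicates spread more at 12 h, with replicate 1 highest. The log2 difference was -0.63 ± 0.11 at 12 h (edgeR adjusted p = 4.96e-06) and -0.59 ± 0.11 at 24 h (adjusted p = 2.53e-05), and it stayed below 0 under every alternative (-0.76 to -0.42 at 24 h). Fitted to the 6 libraries of 1 time point alone, neither passed (adjusted p = 0.0753 and 0.0772). Hspa8 was also lower before induction without passing (-0.26 ± 0.11), and the change from uninduced passed as different between the lines at 12 h and not at 24 h (-0.33 ± 0.15, edgeR adjusted p = 0.0890). Of the 150-base stretches of its transcript 55.4% recur in other genes, foremost the pseudogene Gm15459.

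Hsph1 stood at 161, 90.6 and 112 CPM in the Activator replicates and 231, 236 and 227 CPM in the Control replicates at 12 h, the time at which the Control line was highest. At 24 h the values were 129, 103 and 122 CPM and 176, 171 and 186 CPM. The groups were apart at both times. The log2 difference was -0.96 ± 0.15 at 12 h (edgeR adjusted p = 2.86e-06) and -0.60 ± 0.15 at 24 h (adjusted p = 0.00136). The call at 24 h was lost when replicate 2 was left out of all groups (-0.41, adjusted p = 0.102). Hsph1 was likewise lower before induction without passing (-0.36 ± 0.15), and the difference in change at 24 h was -0.24 ± 0.22 (edgeR adjusted p = 0.425). Against uninduced Activator cells the level at 24 h differed by -0.044 ± 0.15 and did not pass (adjusted p = 0.815). The RefSeq promoter of Hsph1 holds TTC, 2 bases of any kind, then GAA, starting 33 bases before 1 of its start sites, shown with its flanks and the units in capitals (chr5:149636356-149636374, minus strand, GRCm38.p6), a pair found before 8.11% of genes.
Hsph1: aatctTTCtcGAAggctcg

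The mitochondrial pair Hspd1 and Hspe1 (HSP60 and HSP10) moved together. They lie head to head at chr1:55077835-55088243 (minus strand) and chr1:55088132-55091307 (plus strand) on GRCm38, and their annotated first exons overlap on opposite strands. A run of 4 alternating units lies before a RefSeq start of each gene and is shown because no other member with a RefSeq promoter holds as many as 3 in a row, which were found before 0.514% of genes (chr1:55088054-55088081, GRCm38.p6, plus strand, capitals on the 4 units, starting 89 bases before the Hspe1 start).
Hspe1: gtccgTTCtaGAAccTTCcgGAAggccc
Hspd1 rose from 835, 632 and 621 CPM in uninduced Activator replicates to 1320.1, 829.7 and 1175 CPM at 3 h and then fell to 581, 436 and 488 CPM at 24 h. Its Control replicates held 979, 959 and 1013 CPM at 3 h and 847, 865 and 808 CPM at 24 h. Replicate 1 of the Activator line was the highest at each time point. The lines overlapped at 3 h and were apart at 24 h.

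For Hspd1 the difference between the lines at 24 h was -0.76 ± 0.17 (edgeR adjusted p = 2.89e-04), and for Hspe1 it was -0.68 ± 0.16 (adjusted p = 5.56e-04). Hspe1 stood at 139, 118 and 118 CPM in the Activator replicates and 202, 207 and 186 CPM in the Control replicates, which did not overlap. Both calls held under every alternative scaling, filter and model and with every library left out, but both genes were also lower before induction without passing (-0.36 ± 0.17 and -0.29 ± 0.16). The change from uninduced to 24 h did not pass as different between the lines (-0.40 ± 0.24, adjusted p = 0.194, and -0.39 ± 0.22, adjusted p = 0.186 in edgeR). Within the Activator line it was -0.47 ± 0.17 for Hspd1 (edgeR adjusted p = 0.0155) and -0.32 ± 0.16 for Hspe1, which did not pass (adjusted p = 0.0762). The ratio of Hspd1 to Hspe1 per kilobase ranged from 2.07 to 2.76 over the 36 libraries, although Hspd1 itself ranged from 436 to 1429 CPM. Strand-specific counting is not stated for these data, and reads from the shared exon stretch could be given to either gene if strand was not used. Of the 150-base stretches of their transcripts, 18.6% for Hspd1 and 14.1% for Hspe1 recur in another gene.

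Hsp90aa1, the inducible cytosolic HSP90, passed as higher in the Activator line at 3 and 6 h and not at the other times. It lies at chr12:110690605-110702728 on GRCm38, minus strand. Of the 150-base stretches of its transcript 36.2% recur in other genes, foremost Gm12346. At 6 h it stood at 1553, 842 and 1185 CPM in the Activator replicates and 811, 903 and 931 CPM in the Control replicates. Replicates 1 and 3 were above the Control replicates and replicate 2 was among them. The log2 difference was 0.37 ± 0.15 at 3 h (edgeR adjusted p = 0.0297), 0.40 ± 0.15 at 6 h (adjusted p = 0.0184) and -0.026 ± 0.15 at 24 h (adjusted p = 0.886). The call at 6 h was lost with library sizes without TMM, in the fit of that time point alone, and without Activator replicate 1 (0.30) or Control replicate 1 (0.26), and that at 3 h without TMM, the filter or the replicate block, and without Activator replicate 1 (0.34), Activator replicate 3 (0.36) or Control replicate 1 (0.28). With mitochondrial mRNAs as the scale the sign turned at both times (-0.24 and -0.32). Hsp90aa1 was also lower before induction without passing (-0.28 ± 0.15), and those groups did not overlap. Within the Activator line it passed with TMM as higher than uninduced at induction (0.61 ± 0.15), 3 h, 6 h (0.73 ± 0.15) and 12 h (0.66 ± 0.15). It did not pass so at 24 h, and at 6 h it was -0.059 on the mitochondrial scale. The change from uninduced passed as different between the lines at 3 and 6 h only.

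Dnajb1, the J-domain partner of cytosolic HSP70, differed by small amounts in both directions. It lies at chr8:83608193-83612653 on GRCm38, plus strand. Its Activator replicates held 66.1, 56.7 and 59.8 CPM at induction and 45.7, 40.3 and 46.3 CPM at 12 h, against 49.0, 51.2 and 55.2 CPM and 60.8, 59.8 and 61.2 CPM in the Control line. The Activator replicates were all higher than the Control replicates at induction and all lower at 12 h. The log2 difference was 0.23 ± 0.076 at induction (edgeR adjusted p = 0.0108), 0.21 ± 0.076 at 3 h (adjusted p = 0.0151) and -0.46 ± 0.077 at 12 h (adjusted p = 4.47e-06). With mitochondrial mRNAs as the scale the values at induction and 3 h turned to -0.14 and -0.39, and the calls were lost at both times with library sizes without TMM. The call at induction was also lost in the fit of that time point alone, without replicate 3 of all groups and without replicate 1 of either line at that time (0.19 and 0.17) and that at 3 h without the filter, the replicate block, replicate 1 or 3 of all groups or Control replicate 2 (0.17). The call at 12 h was lost only in the fit of that time point alone (adjusted p = 0.0641). Neither Dnajb1 nor Bag3 holds a pair of either order within 250 bases before its RefSeq start, which says only that these letters are not in that window. Promoter sequences were at hand for 8 of the 10 genes, all but Hspa8 and Hsp90aa1.

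How the abundant chaperones moved within the Activator line depended on the scale. With TMM, Hspa8 rose by 0.34 ± 0.11 on the log2 scale from uninduced to 3 h, Hsph1 by 0.52 ± 0.15, Hsp90aa1 by 0.79 ± 0.15, Hspd1 by 0.66 ± 0.17, Hspe1 by 0.63 ± 0.16 and Dnajb1 by 0.24 ± 0.076, with edgeR adjusted p from 3.61e-05 to 0.00558. With replicate 3 left out of all groups Hsp90aa1 alone of these 6 still passed. Scaled to the 13 mitochondrially encoded mRNAs instead, these values were -0.25, -0.070, 0.19, 0.063, 0.026 and -0.34. That scale moved the median of all genes from 0.12 to -0.46 in the same comparison, and the share of passed genes that rose from 54.4% to 31.8%. Relative to that median, Hspa8 stood at 0.22 with TMM and 0.22 with mitochondrial mRNAs, Hsp90aa1 at 0.67 and 0.66, and Bag3 at -0.93 and -0.93. A change of scale moves all genes by about the same amount, so this likeness was fixed in advance and supports neither scale. Which scale is closer to RNA per cell was not tested. Bag3 and Hspa1b stayed below 0 and Hspb1 stayed above 0 at 3 h, and Hspa1a, Hspa1b and Hspb1 stayed above 0 at 24 h, on all 4 scales.

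**Figure D3:**
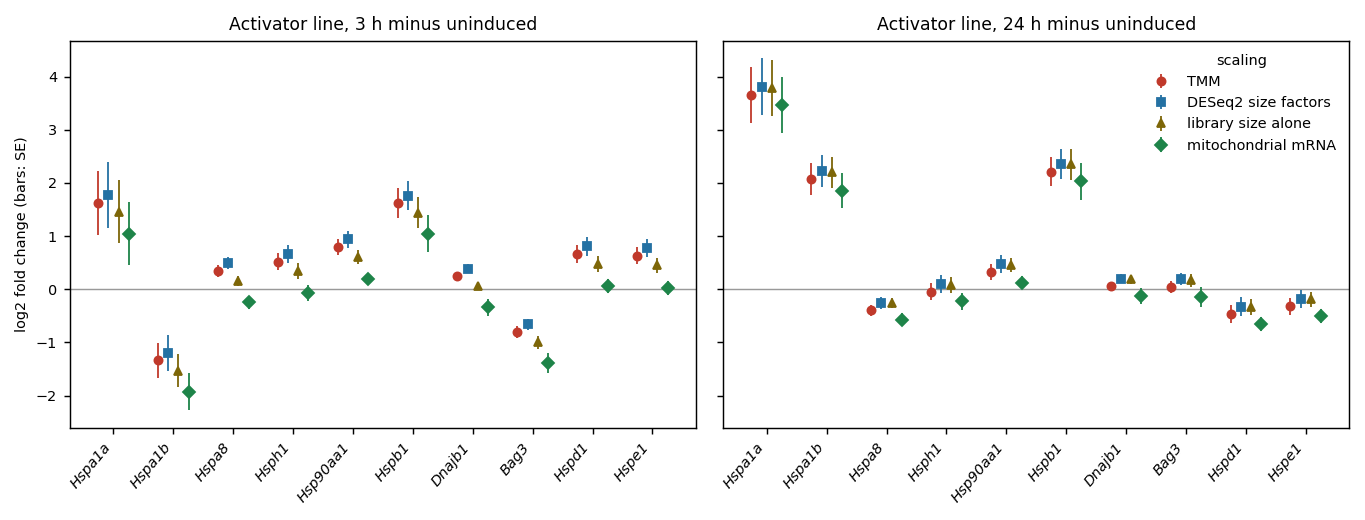
Log2 fold change within the MSR-dCas9-Activator line (y axis, bars are standard errors) from uninduced to 3 h (left) and to 24 h (right) for the 10 genes (x axis) under 4 scalings of the same counts. At 3 h Hspa8 runs from 0.49 with DESeq2 size factors to -0.25 with mitochondrial mRNAs, while at 24 h it runs from -0.25 to -0.57.

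Other genes of protein quality control were read in 11 lists of 131 genes, of which 130 were tested. At induction 46 of the 130 were higher and 16 lower in the Activator line, beside 31.7% and 25.5% of all genes, with a median log2 difference of 0.18 beside 0.10 over all genes. The counts were 3 and 38 on the mitochondrial scale, where the median of all genes was -0.25, so directions of the lists at that time hold for the TMM scale. Of the 130 genes 101 passed without replicate 2 and 21 without replicate 3. The 26S proteasome, which degrades ubiquitinated proteins, had 19 of 31 subunits higher and 0 lower (median 0.38), led by Psmb4, a core subunit (0.76 ± 0.13, adjusted p = 7.70e-06 in edgeR), against 1 higher and 4 lower on the mitochondrial scale, 5 higher without replicate 3 and 29 without replicate 2. The list of endoplasmic reticulum chaperones and the unfolded protein response had 10 of 17 higher (median 0.24), led by Creld2 (0.46 ± 0.11, adjusted p = 4.85e-04), and 3 lower, led by the response's transcription factor Xbp1 (-1.20 ± 0.21, adjusted p = 3.04e-05). Of the TRiC chaperonin, which folds actin and tubulin, and its partner prefoldin, 3 of 14 were higher (median 0.26), led by the prefoldin subunit Pfdn5 (0.40 ± 0.10, adjusted p = 0.00126). Of the other mitochondrial chaperones and proteases 1 of 11 was higher, Lonp1 (0.36 ± 0.10, adjusted p = 0.00414), and 3 were lower (median 0.12), led by Afg3l2 (-0.44 ± 0.081, adjusted p = 4.18e-05).

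The partners of the HSP70 system were mixed at induction. Other J-domain proteins had 4 of 11 higher (median 0.052), led by Dnajb5 (0.59 ± 0.15, adjusted p = 0.00135 in edgeR), and 2 lower, led by Dnajb2 (-1.11 ± 0.13, adjusted p = 2.63e-08). Other HSP70 co-chaperones had 3 of 8 higher (median 0.18), led by the ubiquitin ligase Stub1 (0.40 ± 0.10, adjusted p = 9.23e-04), and 1 lower, Bag2 (-0.57 ± 0.083, adjusted p = 1.47e-06). Of the other HSP70 and HSP110 genes 2 of 8 were higher (median 0.085), led by Hspa12a (6.09 ± 0.57, adjusted p = 1.11e-09), and 1 was lower, Hspa12b (-1.48 ± 0.17, adjusted p = 4.08e-08). Hspa12a was near 0 in the Control line at a mean of 0.0780 CPM, below the level of the filter, and stood at 5.22 CPM in the Activator line. It was tested and named through libraries in which it was high, so its calls are descriptions, in the counts of its list too. Of the other small heat shock proteins 1 of 5 was lower (median -0.69), Hspb8, the partner of Bag3 in selective autophagy (-0.79 ± 0.12, adjusted p = 1.63e-06). Among 12 HSP90 genes and co-chaperones 1 was lower (median 0.053), Ahsa2 (-0.20 ± 0.079, adjusted p = 0.0300). Among 4 genes, of heat shock factors and their binding protein Hsbp1, Hsf1 was lower (-0.31 ± 0.064, adjusted p = 1.61e-04). The median of the 4 was 0.0070, and 2 were higher, led by Hsbp1 (0.28 ± 0.10, adjusted p = 0.0138), which is not itself a heat shock factor. Among 9 other genes induced by heat or proteotoxic stress 2 were higher, led by the ubiquitin gene Ubb (0.41 ± 0.10, adjusted p = 6.21e-04), and 3 were lower (median -0.11), led by Ier5 (-1.83 ± 0.17, adjusted p = 5.43e-10). On the mitochondrial scale Creld2, Pfdn5, Lonp1, Dnajb5, Stub1, Hsbp1 and Ubb no longer passed, and Lonp1 and Hsbp1 turned to values below 0. The named genes that were lower still passed there. That scale moved the median of all genes from 0.10 to -0.25, so this was largely fixed in advance and is no support. DESeq2 size factors moved that median up to 0.18. With them Ahsa2 no longer passed (-0.12 ± 0.082, edgeR adjusted p = 0.198), while the other named lower genes did.

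At 24 h the balance of the lists depended on the setting. In the model of all libraries 24 of 130 genes were higher and 43 lower, beside 34.5% and 29.4% of all genes, with a median of -0.093 beside 0.0088 over all genes. With DESeq2 size factors, which moved the median of all genes to 0.16, the counts were 37 and 31. Without replicate 2 they turned to 51 higher and 32 lower (median 0.13), and without replicate 3 they were 8 and 33. HSP90 genes and co-chaperones had 8 of 12 lower and 0 higher (median -0.43), led by Fkbp5 (-0.82 ± 0.088, adjusted p = 6.17e-09 in edgeR), and none was higher on any of the 4 scales. The number lower was 5 with DESeq2 size factors, 7 with library sizes without TMM and 11 on the mitochondrial scale. It was 6 without replicate 2 and 5 without replicate 3. The endoplasmic reticulum list had 7 of 17 lower (median -0.20), led by Hsp90b1, its HSP90 (-1.02 ± 0.12, adjusted p = 4.51e-08), and 1 higher, the J-domain protein Dnajb9 (1.01 ± 0.17, adjusted p = 7.87e-06). Of the stress-induced genes 8 of 9 were higher (median 0.42), led by the transcription factor Atf3 (3.14 ± 0.24, adjusted p = 1.70e-11), and the collagen chaperone Serpinh1 was lower (-1.10 ± 0.12, adjusted p = 8.76e-09). On the mitochondrial scale 4 of the 9 were higher and 1 was lower. This list was drawn up with results of these libraries known, so its count is not independent evidence of its direction.

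On the TMM scale the proteasome at 24 h had 6 of 31 higher, led by Psmd8 (0.62 ± 0.10, adjusted p = 2.52e-06 in edgeR), and 8 lower (median -0.058), led by Psma5 (-0.79 ± 0.13, adjusted p = 6.44e-06). The counts were 1 higher and 15 lower on the mitochondrial scale, 10 and 5 with DESeq2 size factors and 16 and 5 without replicate 2, so no direction holds over these settings. Other mitochondrial chaperones and proteases had 5 of 11 lower (median -0.20), led by Htra2 (-0.73 ± 0.088, adjusted p = 4.70e-08). The TRiC chaperonin and prefoldin had 2 of 14 higher, led by Cct7 (0.40 ± 0.15, adjusted p = 0.0256), and 4 lower (median 0.019), led by Tcp1 (-0.79 ± 0.12, adjusted p = 1.35e-06). Other J-domain proteins had 3 of 11 higher, led by Dnajb4 (0.45 ± 0.13, adjusted p = 0.00443), and 3 lower (median -0.028), led by Dnajb2 (-0.62 ± 0.13, adjusted p = 1.15e-04). Other HSP70 co-chaperones had 1 higher, Bag5 (0.26 ± 0.089, adjusted p = 0.0127), and 1 lower (median 0.016), Bag2 (-0.62 ± 0.083, adjusted p = 3.08e-07). Other HSP70 and HSP110 genes had 2 higher, led by Hspa12a (4.64 ± 0.48, adjusted p = 5.17e-09), again as a description only, and 3 lower (median -0.025), led by Hspa12b (-1.11 ± 0.17, adjusted p = 2.84e-06). Of the other small heat shock proteins 2 of 5 were lower (median -0.31), led by Hspb6 (-0.60 ± 0.14, adjusted p = 5.67e-04). Hsf1, the factor of the heat shock genes, was still lower (-0.33 ± 0.064, adjusted p = 7.02e-05), and Hsbp1, its binding protein, was higher (0.31 ± 0.10, adjusted p = 0.00629), with a median of 0.19 over the 4 genes of that list. On the mitochondrial scale Cct7, Dnajb4, Bag5 and Hsbp1 no longer passed at 24 h.

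**Figure D4:**
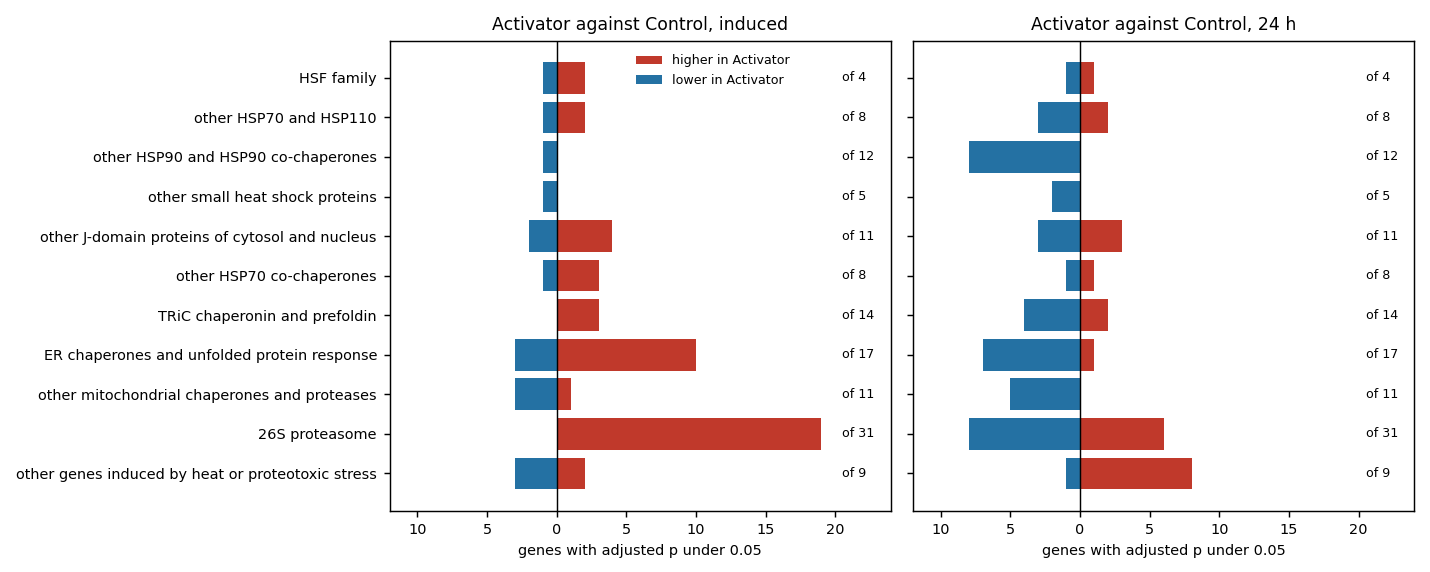
Number of genes with an adjusted p under 0.05 (x axis) in each related list (y axis), higher in the MSR-dCas9-Activator line to the right and lower to the left, at induction and at 24 h, with the genes tested at the right edge. On the TMM scale the proteasome has 19 subunits higher at induction and 6 higher and 8 lower at 24 h, and the HSP90 list has 8 of 12 lower at 24 h.

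Some genes outside the lists followed the summed course of Hspa1a and Hspa1b. Among 8035 genes with a mean of at least 1 CPM whose group means spanned at least 1 log2 unit, the 5 with the highest Pearson correlation over the 12 group means were Plin2 (r = 0.930), Mndal (r = 0.923), 1700023H06Rik (r = 0.914), Ifi203 (r = 0.908) and Myom1 (r = 0.901). The 12 points share libraries between genes, and the single high group at 24 h in the Activator line weighs heavily in them. Plin2, a lipid droplet coat protein, stood at a mean of 50.9 CPM in the Activator line at 12 h and 90.2 CPM at 24 h, and Ifi203, an interferon-inducible gene, at 12.3 and 36.8 CPM.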

How the data were processed

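Ribosome-depleted total RNA of MEF cells was sequenced as stranded paired-end 150 bp libraries. The authors trimmed reads with cutadapt, aligned them with STAR to GRCm38 and used TEtranscripts for counting, and deposited raw counts of genes and repeat families for 36 libraries of the Control and Activator lines. How reads with several matches were divided, the strand setting and the annotation release are not given in the sources used here. The other effector line of the study was not analysed here. Depth ran from 27376846 to 57371803 gene counts, and 1 entry with no gene name, 0.00326% of the counts, was left out. Replicates differed by more than sampling noise. Gene positions came from GENCODE M21, which matched 54495 of 54842 genes, and promoters from RefSeq (GRCm38.p6).

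Counts of all 36 libraries were fitted together in R 4.3.3 with edgeR 4.0.16 (filterByExpr, TMM, quasi-likelihood test, robust), with 12 groups and the replicate number as terms, leaving 28536 genes, over which p-values were adjusted by Benjamini-Hochberg. Contrasts were Activator minus Control at each time point, each time point minus uninduced within a line, and the difference of these changes. Alternatives were DESeq2 1.42.0, its size factors, library sizes without TMM, 13 mitochondrially encoded mRNAs as the scale, no filter, no replicate term, 1 time point at a time, limits on mean and fold and each library or replicate left out. The fit was tested on simulated counts. From each list the named genes are the passed gene with the largest rise and the one with the largest fall among those with a mean of at least 1 CPM. The members, lists and tests were chosen with earlier results of these data known. The promoter search covered 250 bases before each RefSeq start.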

Additional observations from a re-analysis of the deposited data

Results flagged for a closer look

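For 25 of the 50 pairs of gene and time point tested, the change from uninduced differed between the lines by edgeR's test of that difference (adjusted p under 0.05). Of all genes 32.2%, 47.1%, 50.1%, 51% and 33.1% passed this test from induction to 24 h, beside 3, 5, 6, 7 and 4 of the 10 members. The values are the Activator change minus the Control change on the log2 scale, with the standard error. The uninduced libraries are shared by all time points. Hspb1 and Bag3 gave 9 of the 25. For Hspb1 the difference was 1.30 ± 0.42 at induction, then 1.62 ± 0.43, 1.52 ± 0.42, 2.40 ± 0.42 and 1.86 ± 0.42 at 3, 6, 12 and 24 h, with adjusted p between 2.92e-05 and 0.0188. For Bag3 it was -0.75 ± 0.16 at induction, then -0.88 ± 0.16, -0.79 ± 0.16 and -0.50 ± 0.16 at 3, 6 and 12 h, with adjusted p between 4.50e-05 and 0.00956.

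The HSP70 genes differed late or changed sign with time. Hspa1b gave -1.10 ± 0.45, -1.36 ± 0.44, -1.07 ± 0.43 and 1.75 ± 0.42 at 3, 6, 12 and 24 h, with the smallest adjusted p at 24 h (edgeR adjusted p = 0.00213). Hspa1a gave 2.49 ± 0.91 at 12 h and 3.07 ± 0.89 at 24 h, from few reads, and these are descriptions, since it entered the test only through the Activator libraries of those times. Hspa8 gave -0.38 ± 0.15 and Hsph1 -0.60 ± 0.22 at 12 h (edgeR adjusted p = 0.0360 and 0.0216), where Hsph1 had changed by 0.58 in the Control line and -0.025 in the Activator line.

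Hsp90aa1 gave 0.65 ± 0.21 at 3 h and 0.68 ± 0.21 at 6 h, Hspd1 0.57 ± 0.24 and Hspe1 0.58 ± 0.22 at 6 h. Dnajb1 gave 0.36 ± 0.11 at induction, 0.33 ± 0.11 at 3 h, -0.34 ± 0.11 at 12 h and 0.28 ± 0.11 at 24 h. Their edgeR adjusted p lay between 0.00931 and 0.0460.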

How the results depend on the processing

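Outside the libraries left out, 1253 of 1484 values under other settings kept their direction and their side of the threshold, and with libraries left out 1853 of 2190 did. The rises of Hspb1 and the lower Bag3 up to 12 h, the lower Hspa1b at 6 h and higher Hspa1b at 24 h, and the lower Hspd1 and Hspe1 at 24 h kept their call between the lines in all of them, the limits on size below aside. Where a value changed, the cause was not tested. The signs that turned did so mainly with the mitochondrially encoded mRNAs as the scale, which lowers the median of all genes in the Activator line after induction. Between the lines, the sign turned at induction for Dnajb1 (-0.14), at 3 h for Dnajb1 (-0.39), Hspa8 (-0.54), Hsp90aa1 (-0.24), Hspd1 (-0.46), Hsph1 (-0.57) and Hspe1 (-0.42), at 6 h for Hsp90aa1 (-0.32), Hspd1 (-0.52) and Hspe1 (-0.44) and at 12 h for Hsp90aa1 (-0.54). Within the Activator line, the sign turned at induction for Dnajb1 (-0.32), Hspa8 (-0.17) and Hspd1 (-0.021), at 3 h for Dnajb1 (-0.34), Hspa8 (-0.25) and Hsph1 (-0.070), at 6 h for Hspa8 (-0.60), Hsp90aa1 (-0.059), Hspd1 (-0.21), Hsph1 (-0.41) and Hspe1 (-0.18) and at 12 h for Hspd1 (-0.30) and Hspe1 (-0.35). For the difference between the lines in the change from uninduced, the sign turned at induction for Dnajb1 (-0.047), at 3 h for Dnajb1 (-0.30), at 6 h for Hspa8 (-0.64), Hsp90aa1 (-0.083), Hspd1 (-0.20), Hsph1 (-0.63) and Hspe1 (-0.19) and at 12 h for Hspd1 (-0.63) and Hspe1 (-0.63). Dnajb1 within the Activator line at 12 h turned to 0.0071 in DESeq2 and 0.0077 with its size factors, and Hsp90aa1 between the lines at 24 h to 0.30 without replicate 2. Counts of passed genes among the 10 that moved were, with the mitochondrial scale, 5, 8 and 9 between the lines at induction, 3 h and 6 h, 1 in the Control line at 12 h, 3, 4 and 9 within the Activator line at induction, 3 h and 12 h, and 2 for the difference in change at 3 h, and the lists then had 41 genes at induction. DESeq2 gave 1 in the Control line at 12 h and 3 for the difference in change at 12 h, as its size factors did for the latter. Library size without TMM gave 3 between the lines at 3 h and 1 in the Control line at 12 h, and no filter on low counts gave 3 between the lines and 3 for the difference in change at 3 h. Limits of a mean of 100 normalised counts and a 2-fold change left 0, 0, 1, 0 and 1 between the lines from induction to 24 h, 0, 1, 0, 0 and 1 within the Activator line and 0, 1, 1, 1 and 1 for the difference in change. With libraries left out, the count was 0 to 1 between the uninduced lines, 2 to 6, 2 to 9, 3 to 6, 6 to 8 and 7 to 9 between the lines from induction to 24 h, 4 to 8, 4 to 10, 3 to 8, 4 to 6 and 3 to 7 within the Activator line, 0 to 6, 2 to 8, 1 to 7, 1 to 7 and 0 to 5 for the difference in change, 0 to 1 in the Control line at 12 h and 0 at its other times. The lists had 21 to 101 genes passed at induction, with 21 without replicate 3 and 101 without replicate 2, and 41 to 83 at 24 h.

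The replicate number was in the model, as in the methods of the study. The labels do not say what samples with the same number share. The deviations of same-numbered samples of the lines correlated at -0.0220 to 0.489, over 0.1 for all but replicate 2 at 12 and 24 h. Without the replicate block 2 genes passed between the lines at 3 h and 4 for the difference in change at 12 h, and the other counts of passed genes stayed within 1.5 times. Depth limits Hspa1a foremost, with 2 to 48 reads per library. In simulated counts a 2-fold change was called for 97 of 100 genes between the lines at 24 h but a log2 change of 0.4 for 21 of 100. The simulation gave all genes the same spread, no replicate effect and few changed genes. It changed only genes with a mean of at least 1 CPM. Its rates therefore do not carry over to Hspa1a or to members that spread more, such as Hspa1b.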

Other observations

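Summed over the 10 genes, which Hspa8, Hsp90aa1 and Hspd1 dominate, the chaperones held 3955, 3124 and 3163 CPM in the uninduced Activator replicates, 5672, 4018 and 5017 CPM at 3 h, 5876, 3387 and 4462 CPM at 6 h and 3341, 2666 and 2984 CPM at 24 h. The Control replicates held 4249, 4085 and 4027 CPM uninduced, 3914, 4356 and 4523 CPM at 6 h and 4035, 4013 and 4107 CPM at 24 h. Replicate 1 of the Activator line was the highest of its group at each of the 6 time points, and replicate 2 was the lowest at 3, 6, 12 and 24 h. Satellite RNA at 6 h was 6314, 18613 and 34911 CPM in replicates 1, 2 and 3, with replicate 3 highest. At 24 h the summed level of all 3 Activator replicates lay below all 3 Control replicates, while Hspa1a, Hspa1b and Hspb1 together stayed a small part of the sum. What sets the order of the replicates was not tested.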
